A study of Mus musculus with 15 samples.

Results

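The genes described here are 35 genes of mitosis and DNA replication, taken by symbol from a deposited table of read counts for 53278 gene symbols. All 35 symbols were in the table. They were split by role into 23 mitotic genes, which act from entry into mitosis to the separation of the chromosomes, and 12 replication genes, which load and run the DNA helicase and the polymerase or supply nucleotides. Counts came from bulk RNA sequencing of brain cortex of 15 male C57BL/6J mice aged 10 to 20 weeks, with 1 library per mouse and 5 mice in each of 3 groups. Repopulation mice had 9 days of PLX3397 food and were then put back on control food for another 9 days. PLX3397 mice had 9 days of PLX3397 food, and control mice had control food. The drug PLX3397 blocks CSF1R, a receptor kinase on which the survival of microglia depends. It was given to the whole animal, and the cortex was sequenced as tissue, so each value is a mean over all cell types. A lower level in such tissue can mean fewer cells of a type or less RNA per cell, and these cannot be told apart.

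A dividing cell copies its DNA in S phase and then builds a spindle that pulls the copies apart in M phase. Replication genes are switched on by E2F factors before S phase, and many mitotic genes later, through promoters with CHR elements and CCAAT boxes that bind the DREAM and MuvB complexes and the factor NF-Y. In the adult cortex few cells divide. Oligodendrocyte precursors are the main dividing cells at rest, and microglia divide in a burst when they return after depletion. Several replication proteins, among them PCNA and the MCM helicase subunits, are also made in cells that do not divide, where PCNA serves DNA repair.

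Promoter sequence was available for 29 of the 35 genes, from RefSeq on GRCm38.p6. Mcm4, Aurkb, Tpx2, Foxm1, Ccna2 and Kif20a had no entry. The 9 windows below belong to all 6 mitotic genes with lower counts in repopulation than in PLX3397 cortex, described further on, and to all 3 replication genes that passed the test in at least 1 comparison. They are shown to compare the promoter letters of both roles. Each window runs 5′ to 3′ along the gene's strand, from 150 bases before the start to 30 bases after it. Capitals mark matches, on either strand, to a CHR, a CCAAT box or an E2F motif. The CHR was read as TTTGAA, and its variant as TTCGAA, and the box by the letters in its name. The E2F motif was read as TTCCCGC, and its variants as TTCGCGC, also TTGCCGC, and also TTGGCGC. Top2a lies at chr11:99024160-99024339 on the minus strand, Cenpf at chr1:189688057-189688236 on the minus strand, Ube2c at chr2:164769779-164769958 on the plus strand and Cdc20 at chr4:118437314-118437493 on the minus strand. Mki67 lies at chr7:135716350-135716529 and Ccnb1 at chr13:100786457-100786636, both on the minus strand. Mcm3 lies at chr1:20820283-20820462, Mcm7 at chr5:138171854-138172033 and Pcna at chr2:132253151-132253330, all on the minus strand.
Top2a: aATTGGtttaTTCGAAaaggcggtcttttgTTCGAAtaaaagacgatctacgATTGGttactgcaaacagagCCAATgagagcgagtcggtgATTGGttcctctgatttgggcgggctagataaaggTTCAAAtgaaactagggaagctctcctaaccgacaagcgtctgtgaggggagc
Cenpf: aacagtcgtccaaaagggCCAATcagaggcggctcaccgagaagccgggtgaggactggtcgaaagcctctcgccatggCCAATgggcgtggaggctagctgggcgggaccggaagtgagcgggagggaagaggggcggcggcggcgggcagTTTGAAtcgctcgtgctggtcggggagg
Ube2c: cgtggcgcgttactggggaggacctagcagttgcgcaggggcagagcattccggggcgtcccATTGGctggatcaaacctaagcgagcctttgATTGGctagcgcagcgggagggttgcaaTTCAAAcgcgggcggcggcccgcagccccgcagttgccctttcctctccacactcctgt
Cdc20: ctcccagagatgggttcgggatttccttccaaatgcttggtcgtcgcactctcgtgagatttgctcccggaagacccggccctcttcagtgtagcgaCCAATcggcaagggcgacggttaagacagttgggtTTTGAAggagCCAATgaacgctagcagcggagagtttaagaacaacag
Mki67: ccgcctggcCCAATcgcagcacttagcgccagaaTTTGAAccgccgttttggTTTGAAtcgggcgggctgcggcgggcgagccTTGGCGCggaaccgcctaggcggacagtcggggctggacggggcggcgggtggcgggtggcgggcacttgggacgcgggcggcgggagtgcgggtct
Ccnb1: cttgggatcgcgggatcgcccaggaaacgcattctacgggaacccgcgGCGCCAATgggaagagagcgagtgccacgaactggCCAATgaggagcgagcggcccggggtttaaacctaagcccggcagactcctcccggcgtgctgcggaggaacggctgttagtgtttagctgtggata
Mcm3: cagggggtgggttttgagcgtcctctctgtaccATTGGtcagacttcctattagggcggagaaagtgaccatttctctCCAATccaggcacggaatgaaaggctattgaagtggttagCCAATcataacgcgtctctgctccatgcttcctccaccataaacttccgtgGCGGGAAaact
Mcm7: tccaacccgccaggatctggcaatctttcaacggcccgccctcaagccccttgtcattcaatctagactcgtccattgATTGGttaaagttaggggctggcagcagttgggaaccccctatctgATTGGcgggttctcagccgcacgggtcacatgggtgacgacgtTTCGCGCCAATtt
Pcna: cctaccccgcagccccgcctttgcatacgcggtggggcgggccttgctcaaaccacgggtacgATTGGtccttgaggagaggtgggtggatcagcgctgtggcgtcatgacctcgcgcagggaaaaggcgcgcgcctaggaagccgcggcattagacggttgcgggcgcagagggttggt

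The mitotic windows were not alike. Top2a, Cenpf, Ube2c and Cdc20 each held a CHR and at least 2 CCAAT boxes, and no E2F match. Mki67 held 2 CHR matches, 1 CCAAT box and an E2F match 67 bases before the start, and Ccnb1 held 2 CCAAT boxes, an E2F match 102 bases before the start and no CHR. In Cdc20 the CHR lay 18 bases before the start and CCAAT boxes lay 53 and 8 bases before it. The Mcm3 and Mcm7 windows held 3 CCAAT boxes each, no CHR, and E2F matches 18 to 21 bases after the start, while Pcna held 1 CCAAT box and neither of the others. The motifs can share letters: E2F matches overlap each other and the CCAAT box in Mcm7, where TTCGCGCCAAT holds all of them, and an E2F match overlaps a CCAAT box in Ccnb1. Over 300 bases, from 250 before to 50 after the start, a CHR was present in 13 of 18 mitotic windows (72.2%), 3 of 11 replication windows (27.3%) and 19.2% of all 32851 RefSeq windows. A CCAAT box was present in 83.3% of mitotic, 72.7% of replication and 37.4% of all windows. An E2F match was present in 27.8% of mitotic, 54.5% of replication and 9.57% of all windows. These are counts of letters and not of bound sites.

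Depth limited what could be judged for the mitotic genes. Library totals ran from 26837517 to 29582274 in repopulation, 23413551 to 29482140 in PLX3397 and 24347802 to 48617851 in control cortex, so that a level of 1 CPM (counts per library, scaled to a common total) stands for 23.4 to 48.6 reads. Cdk1, the kinase that drives entry into mitosis, was too low to judge. It had 7, 6, 6, 8 and 5 reads in repopulation, 12, 11, 6, 5 and 6 reads in PLX3397, and 3, 4, 15, 11 and 7 reads in control libraries, and a filter that asks for about 10 reads in 5 libraries removed it. Its groups overlapped throughout. Bub1 (2 to 15 reads), Aurkb (6 to 22) and Ube2c (2 to 25) among the mitotic genes, and Cdc6 (8 to 21) among the replication genes, were tested but averaged under 20 reads per library in every group. A stricter filter of 20 reads would set aside all 5 of these genes, and a looser filter of 5 would set aside 0. In total 22 mitotic and 12 replication genes were tested.

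Levels of different genes were compared per kilobase of exon, scaled to the same total in every library. Pcna, the clamp that holds the polymerase on DNA, was the most abundant, at 37.7 ± 0.830 in repopulation, 42.1 ± 2.15 in PLX3397 and 37.8 ± 2.90 in control cortex (SD, n = 5 each, as throughout). Ccne1, the cyclin that starts S phase, followed at 21.8 ± 1.36, 21.1 ± 2.48 and 22.7 ± 0.580 in repopulation, PLX3397 and control cortex. Mcm4 and Mcm7, subunits of the replicative helicase, came next. Mcm4 had 14.4 ± 0.777, 14.4 ± 0.837 and 12.3 ± 1.24, and Mcm7 12.3 ± 0.637, 13.5 ± 0.350 and 13.2 ± 0.815, in repopulation, PLX3397 and control cortex, so that their order differed between groups. The most abundant mitotic gene per length was Nusap1, a spindle microtubule protein, at 4.63 ± 0.247 in repopulation, 4.54 ± 0.405 in PLX3397 and 4.71 ± 0.918 in control cortex. Top2a, which untangles DNA before mitosis, stood at 0.744 ± 0.204, 1.70 ± 0.645 and 1.02 ± 0.206 in repopulation, PLX3397 and control cortex. Cdk1, Bub1, Cdc6, Ccnb1, Cenpf, Kif18a and Aurkb were all below 0.8 in every group.

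Microglia transcripts were nearly absent in the PLX3397 group. Csf1r had 105 ± 5.68 CPM in repopulation, 0.213 ± 0.116 CPM in PLX3397 and 85.0 ± 4.14 CPM in control cortex, Cx3cr1 had 50.02 ± 1.04, 0.106 ± 0.0873 and 46.4 ± 4.44 CPM in the same groups, and P2ry12 had 27.0 ± 1.18, 0.720 ± 0.128 and 24.5 ± 1.64 CPM. Neuron markers summed to 7074 to 7446, 6929 to 7780 and 6987 to 7674 CPM in the repopulation, PLX3397 and control libraries. Choroid plexus transcripts set 4 libraries apart. The 8 choroid plexus markers summed to 561 CPM in repopulation mouse 4 and 9.20 to 16.0 CPM in the other repopulation mice, to 84.6, 218 and 113 CPM in PLX3397 mice 1, 2 and 3 and 17.6 and 14.5 CPM in PLX3397 mice 4 and 5, and to 9.76 to 25.6 CPM in control mice. The main calls among the mitotic and replication genes are therefore given with and without these 4 libraries, a limit of 50 CPM that was chosen after seeing the data. The further genes described below are given with all libraries only. Only 2 PLX3397 libraries remain without them.

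**Figure D1:**
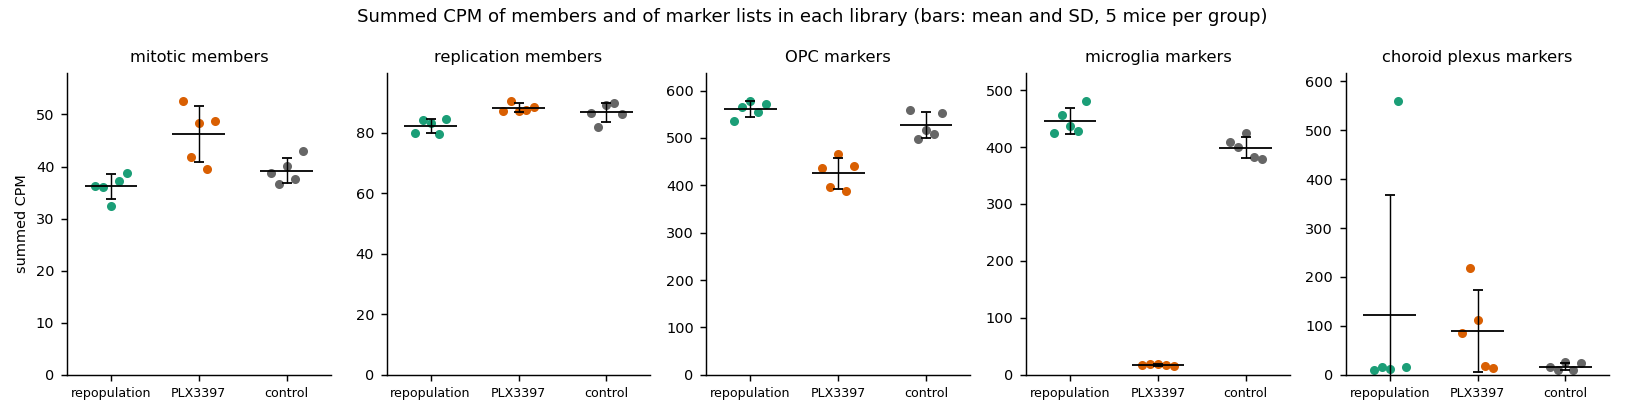
Summed CPM of the mitotic and replication genes and of marker lists for oligodendrocyte precursors (OPC), microglia and choroid plexus in each library, with repopulation, PLX3397 and control mice from left to right. Points are mice, the horizontal line is the mean and the bar is the SD over 5 mice. The mitotic sum of 3 PLX3397 mice lies above that of every other mouse, and all 5 lie above every repopulation mouse.

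Summed over the 23 mitotic genes, repopulation mice had 36.2, 36.2, 32.5, 37.1 and 38.8 CPM, PLX3397 mice 52.7, 41.8, 48.4, 39.5 and 48.8 CPM, and control mice 38.8, 36.6, 40.1, 37.7 and 43.0 CPM. Every PLX3397 mouse lay above every repopulation mouse, and PLX3397 mice 2 and 4 lay within the control range. The 12 replication genes summed to 82.4 ± 2.36 CPM in repopulation, 88.4 ± 1.43 CPM in PLX3397 and 86.8 ± 3.22 CPM in control cortex, with every PLX3397 mouse above every repopulation mouse. Over the same mice the 11 markers of oligodendrocyte precursors summed to 536 to 579 CPM in repopulation, 388 to 467 CPM in PLX3397 and 498 to 559 CPM in control cortex, and none of the 11 was at 0 in any group. Of these markers 8 fell in PLX3397 against control cortex, beside 8.35% of all tested genes. In repopulation against PLX3397 cortex 8 rose, beside 7.61% of all tested genes. The largest part of their sum was Tnr, at 278, 248 and 249 CPM in repopulation, PLX3397 and control cortex. Sox10 had 44.25, 41.4 and 43.5 CPM in the same groups, so the markers did not all move alike. Pdgfra, the growth factor receptor of these cells, had 62.8 ± 4.23 CPM in repopulation, 24.9 ± 5.74 CPM in PLX3397 and 54.4 ± 2.60 CPM in control cortex. The 16 microglia markers summed to 424 to 482 CPM in repopulation, 14.8 to 19.3 CPM in PLX3397 and 378 to 424 CPM in control cortex. Endothelial markers summed to 270 to 285 CPM in repopulation, 225 to 245 CPM in PLX3397 and 259 to 281 CPM in control cortex. Markers of subventricular progenitors and neuroblasts, cells of a dividing niche near the cortex, summed to 367 to 408, 382 to 424 and 391 to 432 CPM in the same groups, and overlapped. The largest part of that sum was Tubb3, at 219, 237 and 249 CPM, while Dcx had 54.9 ± 2.73, 51.0 ± 7.36 and 40.9 ± 4.95 CPM. Of the 12 markers 1 rose and 2 fell in PLX3397 against control cortex, beside 8.19% and 8.35% of all tested genes. Blood leukocyte markers summed to no more than 9.10 CPM in any library. The part of these cells in the mitotic levels was not tested.

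The comparison of PLX3397 with control food asks how the cell cycle genes stood after 9 days of the drug. The drug itself and the loss of microglia cannot be told apart in it. Of the 22 tested mitotic genes 6 rose: Mki67, Top2a, Kif11, Kif18a, Cenpe and Hmmr, by 1.38- to 1.65-fold. No mitotic gene fell, with 0 also at an unadjusted p under 0.05 and 0 by DESeq2. In the same edgeR quasi-likelihood fit 8.19% of all 18369 tested genes were called higher and 8.35% lower, at an adjusted p under 0.05. The median log2 fold change was 0.31 over the mitotic genes, against -0.002 over all tested genes, and 16 of the 22 values were positive. Of the 12 replication genes 0 rose, with 2 at an unadjusted p under 0.05 and 1 by DESeq2. In the same list 1 fell, close to the share of all tested genes called lower, and the median was 0.02.

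**Figure D2:**
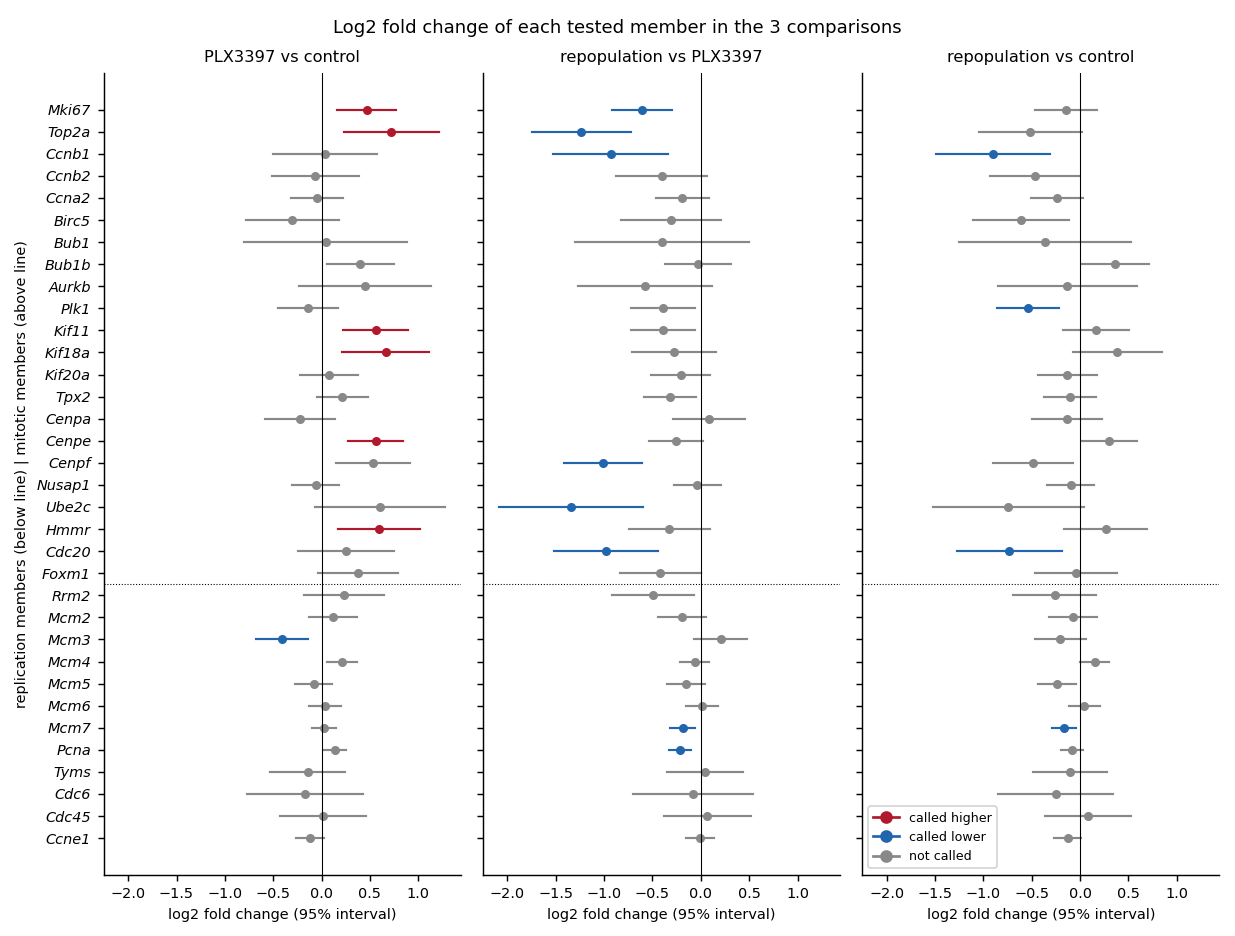
Log2 fold change of each of the 34 tested genes, with its 95% interval, for PLX3397 against control, repopulation against PLX3397 and repopulation against control. Mitotic genes stand above the dotted line and replication genes below it, and colour shows which passed an adjusted p of 0.05. In repopulation against PLX3397, 21 of 22 mitotic values lie below 0.

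Chromosome proteins come first. Mki67, which coats mitotic chromosomes and marks dividing cells, had 2.77, 2.82, 2.20, 3.11 and 3.44 CPM in repopulation mice, 5.60, 4.14, 4.20, 2.85 and 4.91 CPM in PLX3397 mice and 3.39, 2.79, 2.93, 3.57 and 3.14 CPM in control mice. PLX3397 mouse 4 lay among the controls and the other PLX3397 mice lay above all of them. The log2 fold change over control was 0.47 (SE 0.148, adjusted p = 0.0308). Top2a had 1.18, 1.94, 0.969, 1.82 and 1.68 CPM in repopulation mice, 5.36, 2.30, 3.44, 2.31 and 4.31 CPM in PLX3397 mice and 1.93, 1.69, 2.66, 1.97 and 2.67 CPM in control mice. Here PLX3397 mice 2 and 4 lay within the control range, and mouse 1 was the highest. The log2 fold change was 0.72 (SE 0.234, adjusted p = 0.0407).

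Among the mitotic motors, Cenpe, the kinesin that carries chromosomes to the spindle equator, had 2.20, 2.21, 1.68, 2.11 and 2.10 CPM in repopulation mice, 2.44, 2.58, 2.55, 2.04 and 2.56 CPM in PLX3397 mice and 1.56, 1.69, 1.59, 1.64 and 1.88 CPM in control mice. PLX3397 and control mice did not overlap. Here and below, the share of all tested genes whose groups do not overlap was not counted. The rise of Cenpe, 0.56 on the log2 scale (SE 0.138, adjusted p = 0.00583), passed the test with any single library left out. Kif11, the motor that pushes the spindle poles apart, had 1.99, 2.58, 1.75, 2.93 and 2.98 CPM in repopulation mice, 3.79, 2.62, 2.96, 2.78 and 3.76 CPM in PLX3397 mice and 2.43, 1.78, 2.00, 1.97 and 2.67 CPM in control mice. Control mouse 5 lay just above the lowest PLX3397 mouse, and the log2 fold change was 0.56 (SE 0.163, adjusted p = 0.0187). Kif18a, which damps chromosome movement at the spindle, averaged 1.27 ± 0.255 CPM in PLX3397 and 0.812 ± 0.193 CPM in control cortex, with overlap at the lowest PLX3397 mouse (log2 fold change 0.66, SE 0.218, adjusted p = 0.0371). Hmmr, a spindle protein and hyaluronan receptor, had 1.15, 1.41, 2.03, 1.29 and 1.32 CPM in PLX3397 mice and 0.926, 1.00, 1.14, 1.07 and 0.706 CPM in control mice. These groups did not overlap, and its adjusted p of 0.0488 lay nearest to the threshold (log2 fold change 0.59, SE 0.205). With each of the 15 libraries left out in turn, Hmmr lost its call 13 times (adjusted p up to 0.182), Top2a 7 times, Kif18a 6 times, Mki67 5 times and Kif11 3 times. Hmmr also lost it with no filter, with only the 2 groups and with the replicate block. Top2a lost it with only the 2 groups (adjusted p = 0.0549) and with the replicate block (adjusted p = 0.0662). Kif18a lost it with no filter and with only the 2 groups (adjusted p = 0.0503). With no filter 4 mitotic genes were called higher.

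Other mitotic genes did not pass the test. The kinetochore protein Cenpf missed the threshold, at 1.60, 1.80, 1.83, 1.59 and 2.26 CPM in PLX3397 mice and 1.23, 1.33, 1.62, 0.821 and 1.29 CPM in control mice (log2 fold change 0.53, SE 0.186, adjusted p = 0.0516). The cyclins Ccnb1, Ccnb2 and Ccna2, which activate the mitotic kinase, had log2 fold changes of 0.03, -0.06 and -0.05, with 95% intervals no wider than -0.51 to 0.57. Plk1, a kinase of spindle assembly, stood at -0.14 (interval -0.46 to 0.17), and the survivin gene Birc5, a subunit of the Aurora B complex, at -0.30 (-0.79 to 0.18). Foxm1, the factor that switches on mitotic genes, averaged 2.43 ± 0.777 CPM in PLX3397 and 1.93 ± 0.564 CPM in control cortex, and did not pass the test (adjusted p = 0.223).

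Among the replication genes, Mcm3, a helicase subunit, fell by 0.41 on the log2 scale (SE 0.130, adjusted p = 0.0310). It had 2.70, 2.45, 2.24, 2.00 and 3.09 CPM in repopulation mice, 2.05, 2.12, 2.21, 2.17 and 2.14 CPM in PLX3397 mice and 3.13, 2.85, 2.93, 2.55 and 2.83 CPM in control mice. PLX3397 and control mice did not overlap, and the PLX3397 mice had an SD of 0.0574 CPM. Mcm4, another subunit of the same ring, had 13.2, 11.7, 11.7, 11.8 and 11.7 CPM in PLX3397 mice and 10.4, 8.69, 11.2, 11.3 and 10.98 CPM in control mice. These did not overlap either, in the opposite direction, at a log2 fold change of 0.21 with an adjusted p of 0.05001. The 4 other subunits, Mcm2, Mcm5, Mcm6 and Mcm7, had values of -0.08 to 0.12 and none passed the test.

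Most of these calls depended on single libraries. Without PLX3397 mouse 5 only 1 mitotic gene was called higher, without PLX3397 mouse 1 or control mouse 2 it was 2, and without control mouse 1 or control mouse 5 it was 3. With the 4 choroid plexus libraries removed 0 were called higher, and the median mitotic log2 fold change was 0.18, with Cenpe at 0.46 (adjusted p = 0.133) and Top2a at 0.59 (adjusted p = 0.147). The 6 genes that rose have long exons, 5431 to 10061 bases with a median of 8816, against a median of 4150 for the other 16 mitotic genes, 7558 for all genes called higher and 3930 for all genes tested. Over all tested genes the median log2 fold change was -0.06 at exon lengths of 1000 to 2000 bases and 0.08 at 10000 to 20000 bases. With the trend on length and GC content taken out, 2 of the 6 were called, Kif11 (0.50, adjusted p = 0.0389) and Cenpe (0.49, adjusted p = 0.0155). The other 4 kept log2 fold changes of 0.41 (Mki67, adjusted p = 0.0620), 0.65 (Top2a, 0.0698), 0.58 (Kif18a, 0.0766) and 0.56 (Hmmr, 0.0696). Mcm3 was not called (-0.32, adjusted p = 0.108), and Mcm4 was (0.22, adjusted p = 0.0462). The mitotic median was then 0.40, against 0.04 over all tested genes, which had been -0.002 without this step. The step thus also shifted all genes, and the calls after it include that shift. The same step gave 1731 genes higher and 832 lower over the whole table, against 1505 and 1533 without it.

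**Figure D3:**
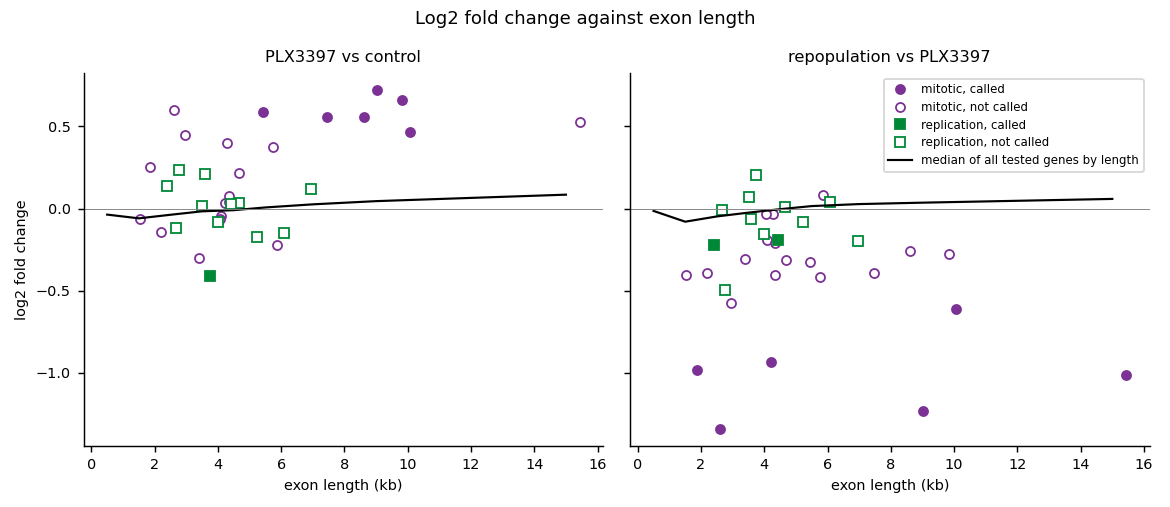
Log2 fold change against exon length in kilobases for PLX3397 against control and repopulation against PLX3397. Circles are mitotic and squares replication genes, filled where the gene passed the test, and the line is the median of all tested genes in each length class. Mitotic genes called in PLX3397 against control span 5431 to 10061 bases, while genes called in repopulation against PLX3397 run from 1868 to 15433 bases.

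The comparison of repopulation with PLX3397 cortex asks what changed once the drug was withdrawn and microglia transcripts were back. Of the 22 tested mitotic genes 6 fell: Top2a, Ube2c, Cenpf, Cdc20, Ccnb1 and Mki67, to between 0.40 and 0.65 of the PLX3397 level. No mitotic gene rose, with 0 at an unadjusted p under 0.05 and 0 by DESeq2. Over all tested genes 8.98% were called lower and 7.61% higher. The median log2 fold change of the mitotic genes was -0.39, against 0.001 over all tested genes, and 21 of 22 were negative. Of the replication genes 2 fell, Pcna and Mcm7, and 0 rose, with 0 at an unadjusted p under 0.05 and 0 by DESeq2, and the median was -0.07. This comparison and the previous share the PLX3397 libraries, so a high value in those libraries enters both.

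Top2a, with the values given above, showed every repopulation mouse below every PLX3397 mouse and a log2 fold change of -1.23 (SE 0.245, adjusted p = 0.00163). Cenpf had 0.845, 0.850, 1.08, 0.643 and 1.12 CPM in repopulation mice, all below the lowest PLX3397 mouse at 1.59 CPM, and a log2 fold change of -1.01 (SE 0.196, adjusted p = 0.000635). Mki67 overlapped at PLX3397 mouse 4 and had a log2 fold change of -0.61 (SE 0.151, adjusted p = 0.00566).

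Cdc20 and Ube2c serve the anaphase-promoting complex, the ubiquitin ligase that ends mitosis, as its activator and its ubiquitin carrier. Cdc20 had 0.642, 0.544, 0.782, 0.607 and 0.386 CPM in repopulation mice, 1.15, 0.919, 1.27, 1.05 and 1.41 CPM in PLX3397 mice and 0.638, 0.746, 0.828, 1.31 and 1.53 CPM in control mice. Repopulation and PLX3397 mice did not overlap, while the controls spread over both ranges (log2 fold change over PLX3397 -0.98, SE 0.260, adjusted p = 0.00989). Ube2c had 0.338, 0.238, 0.186, 0.214 and 0.0702 CPM in repopulation mice, 0.522, 0.318, 0.861, 0.441 and 0.512 CPM in PLX3397 mice and 0.350, 0.357, 0.380, 0.205 and 0.471 CPM in control mice. Its log2 fold change of -1.34 (SE 0.362, adjusted p = 0.0113) rests on 2 to 10 reads per repopulation library and 9 to 25 per PLX3397 library. Repopulation mouse 1 lay above PLX3397 mouse 2. Without PLX3397 mouse 3, the highest, its adjusted p was 0.0517.

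Ccnb1, cyclin B1, the partner that switches on Cdk1, had 0.541, 0.238, 0.186, 0.464 and 0.351 CPM in repopulation mice, 0.452, 0.813, 0.655, 0.712 and 0.769 CPM in PLX3397 mice and 0.638, 0.713, 0.862, 0.493 and 0.628 CPM in control mice. Only PLX3397 mouse 1 lay within the repopulation range. The log2 fold change over PLX3397 was -0.93 (SE 0.290, adjusted p = 0.0272), and the call was lost without PLX3397 mouse 2 or 4, or repopulation mouse 2, 3 or 5, at adjusted p of 0.0521 to 0.0808. This value rests on 5 to 16 reads per repopulation library and 13 to 23 per PLX3397 library. Cyclin B2, Ccnb2, had a log2 fold change of -0.40 and did not pass (adjusted p = 0.257). The spindle assembly genes Plk1, Kif11 and Tpx2 had values of -0.39, -0.39 and -0.32 with adjusted p of 0.0970, 0.101 and 0.103. Foxm1 stood at -0.42 (adjusted p = 0.178). Nusap1, Bub1b, a kinase-like protein of the spindle checkpoint, and Cenpa, the histone of the centromere, had values of -0.04, -0.03 and 0.09.

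**Figure D4:**
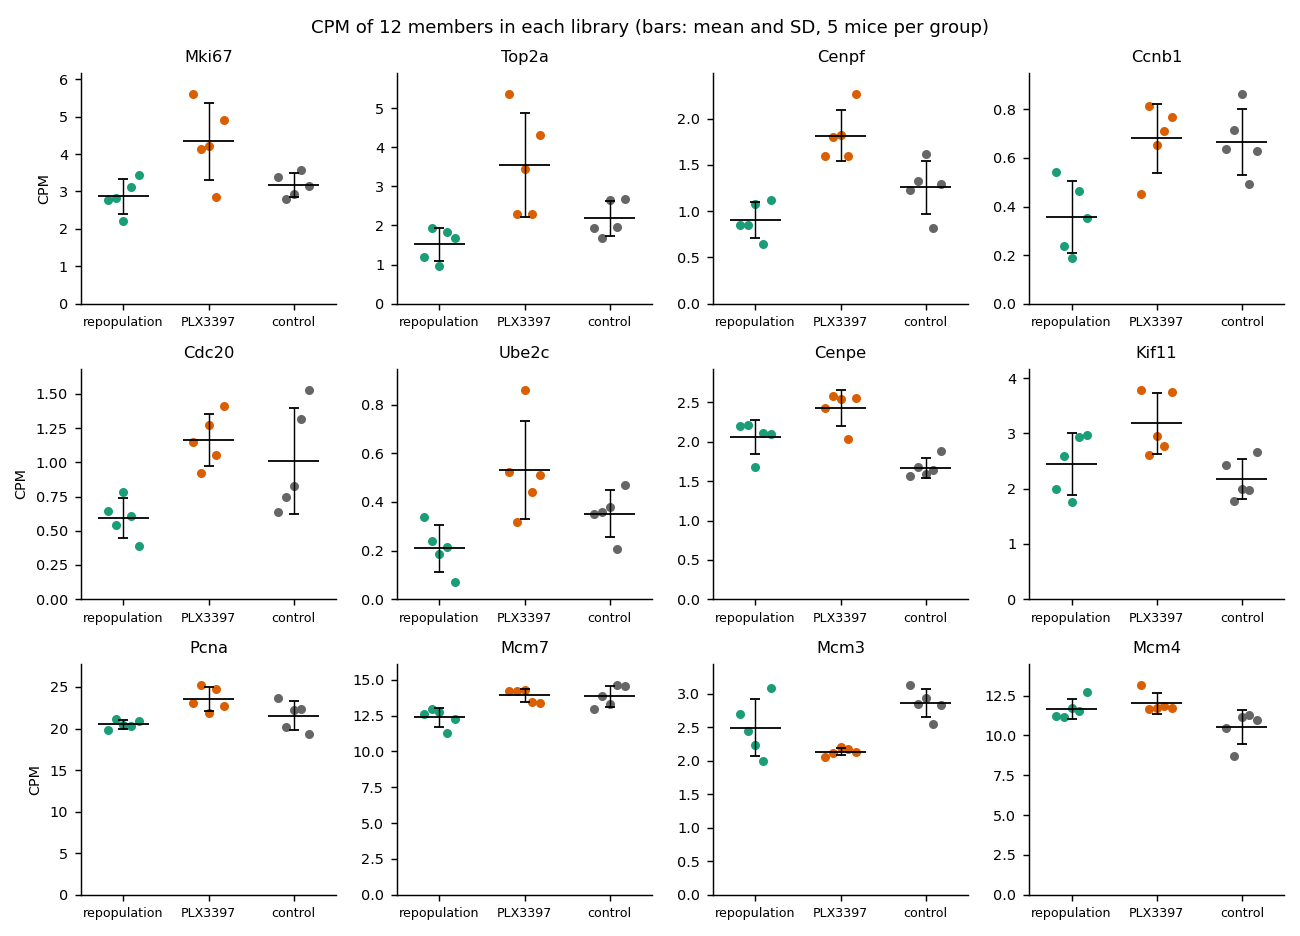
CPM of 12 of the genes in each library, with repopulation, PLX3397 and control mice from left to right. Points are mice, the horizontal line is the mean and the bar is the SD over 5 mice. Top2a, Cenpf, Cdc20, Pcna and Mcm7 are lower in every repopulation mouse than in any PLX3397 mouse, and Cenpe and Mcm4 are higher in every PLX3397 mouse than in any control mouse. The share of all tested genes that separate in this way was not counted.

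Changes among the replication genes were small in size. Pcna had 19.8, 21.1, 20.4, 20.3 and 20.9 CPM in repopulation mice, 23.1, 25.2, 21.8, 24.8 and 22.8 CPM in PLX3397 mice and 23.6, 20.2, 22.3, 22.3 and 19.3 CPM in control mice. Every repopulation mouse was below every PLX3397 mouse, by a log2 fold change of -0.22 (SE 0.056, adjusted p = 0.00787). Mcm7 had 12.6, 12.96, 12.7, 11.3 and 12.2 CPM in repopulation mice, 14.2, 14.2, 14.3, 13.5 and 13.4 CPM in PLX3397 mice and 12.9, 13.9, 13.3, 14.6 and 14.6 CPM in control mice, at a log2 fold change over PLX3397 of -0.19 (SE 0.062, adjusted p = 0.0349). The repopulation and PLX3397 mice did not overlap. Its exons share 385 bases with genes on the other strand, and strand use in the counting is not given in the sources used here. Of these, Cops6 fell as well, by 0.22 on the log2 scale (adjusted p = 0.000859), so the counts of Mcm7 are uncertain.

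Rrm2, the ribonucleotide reductase subunit made in S phase, had 1.35, 1.77, 1.08, 1.50 and 1.89 CPM in repopulation mice, 3.27, 1.95, 2.17, 1.32 and 1.84 CPM in PLX3397 mice and 1.71, 1.36, 2.00, 1.97 and 2.12 CPM in control mice. PLX3397 mouse 1 stood above all other mice, and the log2 fold change of -0.49 over PLX3397 did not pass (SE 0.207, adjusted p = 0.109). Tyms, thymidylate synthase, and Cdc45, a partner of the helicase, had values of 0.04 and 0.07. Cdc6, which loads the helicase, stood at -0.08, with a wide interval of -0.70 to 0.54, so that changes within it were not excluded. Ccne1 stood at -0.01, with an interval of -0.15 to 0.14.

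The mitotic falls held with each library left out in turn at 5 to 6 genes, and Top2a, Cenpf, Cdc20, Mki67 and Pcna passed the test each time. Without the 4 choroid plexus libraries 2 mitotic genes were called lower, Top2a (-1.18, adjusted p = 0.0150) and Cenpf (-0.98, adjusted p = 0.0335), and 0 replication genes were, while Cdc20 stood at -1.06 (adjusted p = 0.114) and the mitotic median at -0.20. The 6 genes that fell had a median exon length of 6615 bases, against 3170 for all genes called lower. With the trend on length and GC content taken out 9 mitotic genes were called lower, with Kif11, Tpx2 and Plk1 added, and the split over all genes was 774 higher and 3491 lower, against 1398 and 1649. The median over all tested genes was then -0.06, against 0.001 without the step, and that of the mitotic genes -0.43. The step thus also shifted all genes downward, and the added calls cannot be told apart from that shift.

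Repopulation was also set against control cortex, to ask how the levels after withdrawal stood against untreated mice. Of the mitotic genes 3 fell, Ccnb1, Plk1 and Cdc20, and 0 rose, with 2 at an unadjusted p under 0.05 and 0 by DESeq2. Over all tested genes 15.2% were called lower and 13.9% higher, so the 3 of 22 mitotic genes called lower lie close to the background. The median was -0.14, against 0.007 over all tested genes. Plk1 had 1.18, 1.33, 1.16, 1.07 and 1.30 CPM in repopulation mice, 1.84, 1.45, 1.69, 1.46 and 1.37 CPM in PLX3397 mice and 2.04, 1.62, 1.79, 1.64 and 1.57 CPM in control mice. Every repopulation mouse lay below every other mouse, and the log2 fold change over control was -0.54 (SE 0.156, adjusted p = 0.0111). Ccnb1 stood at -0.90 (SE 0.286, adjusted p = 0.0190) and lost the call without control mouse 3 or repopulation mouse 2 or 3. Cdc20 stood at -0.73 (SE 0.263, adjusted p = 0.0376). It lost the call without any of control mice 4 and 5 and repopulation mice 1, 2, 4 and 5, and without control mouse 5 its value was -0.54 (adjusted p = 0.140).

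Genes that had risen under PLX3397 food had values of -0.15 (Mki67), -0.51 (Top2a), 0.17 (Kif11), 0.39 (Kif18a), 0.30 (Cenpe) and 0.26 (Hmmr) in repopulation against control cortex, and none passed the test. Top2a did pass with only these 2 groups fitted (-0.52, adjusted p = 0.0448) and with no filter (-0.52, adjusted p = 0.0204). Their intervals reach from -1.05 for Top2a to 0.84 for Kif18a, so that changes of those sizes in these genes were not excluded. Birc5 did not overlap between repopulation, at 0.357 to 0.714 CPM, and control mice, at 0.780 to 1.005 CPM, but missed the threshold (-0.61, SE 0.242, adjusted p = 0.0605). Of the replication genes 1 fell, Mcm7 (-0.16, SE 0.061, adjusted p = 0.0469), and 0 rose, with 0 at an unadjusted p under 0.05 and 0 by DESeq2. A fall of 1 among 12 genes is below the 15.2% of all tested genes called lower. Mcm7 lost this call without any of 8 libraries, and Cops6 fell in the same comparison by 0.29 (adjusted p = 2.44e-05). With the trend on length and GC content taken out the split over all genes was 1397 higher and 2895 lower, against 2548 and 2797, and Cdc20 and Mcm7 were no longer called. Cdc20 and Mcm7 also lost their calls without the 4 choroid plexus libraries, where Bub1b was called higher and Mcm5 lower.

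A further 140 genes of mitosis, replication and cell cycle control were in the table, and 135 of them were tested. In PLX3397 against control cortex 5 of 45 further mitotic genes rose and 1 fell, beside 8.19% of all tested genes called higher and 8.35% lower. Ect2, which directs the cleavage furrow, had 1.29 ± 0.269 CPM in PLX3397 and 0.669 ± 0.196 CPM in control cortex (log2 fold change 0.94, SE 0.222, adjusted p = 0.00436). The condensin subunit Smc2 rose by 0.32 (adjusted p = 0.00465) and the spindle protein Ckap2 by 1.00 (adjusted p = 0.00961), while Ccnf, cyclin F, fell by 0.49 (adjusted p = 0.00251). Of 51 further replication genes 4 rose, led by the clamp loader subunit Rfc1 (0.24, adjusted p = 0.000517), Atad2 (0.34, adjusted p = 0.00106) and the reductase subunit Rrm1 (0.26, adjusted p = 0.00256), and 0 fell, with 1 at an unadjusted p under 0.05 and 0 by DESeq2. The shares that rose on both lists lie near the share over all genes.

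Among 39 tested control genes 6 fell and 1 rose in PLX3397 against control cortex, beside 8.35% of all tested genes called lower and 8.19% higher. Ccnd1, a G1 cyclin, had 34.3 ± 3.86 CPM in PLX3397 and 47.0 ± 4.38 CPM in control cortex (-0.44, adjusted p = 0.000315). Cdkn1a, the p21 inhibitor that acts downstream of p53, stood at -0.39 (adjusted p = 0.000940), and Ccnd2, another G1 cyclin, at -0.27 (adjusted p = 0.00121). Rbl2, the pocket protein of the DREAM complex, rose by 0.14 (adjusted p = 0.0109). The list mixes activators and inhibitors, and the genes that fell include both.

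In repopulation against PLX3397 cortex 8 of the 45 further mitotic genes fell and 1 rose, beside 8.98% of all tested genes called lower and 7.61% higher. Ckap2l, Ckap2 and Cep55, proteins of the spindle and the midbody, stood at -0.84, -0.94 and -1.33 with adjusted p of 0.0149, 0.0152 and 0.0185, and Cit, a kinase of cell separation that is abundant here at 228 ± 9.34 CPM in repopulation and 202 ± 10.2 CPM in PLX3397 cortex, rose by 0.16 (adjusted p = 0.0116). Of the 51 further replication genes 2 fell, a share below that over all genes: Rpa1, which coats single-stranded DNA (-0.17, adjusted p = 0.00685), and Dut, a dUTPase (-0.19, adjusted p = 0.0407). Of the same list 0 rose, with 0 at an unadjusted p under 0.05 and 0 by DESeq2. Of the 39 control genes Rbl1 (0.45, adjusted p = 0.0215) and Myc (0.34, adjusted p = 0.0400) rose, and Cdkn1b (-0.14, adjusted p = 0.0191) and Wee1 (-0.24, adjusted p = 0.0453) fell. Each of these shares lies below that over all genes.

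In repopulation against control cortex 7 of the 45 further mitotic genes fell and 2 rose, beside 15.2% of all tested genes called lower and 13.9% higher, so that the falls lie at the share over all genes and the rises below it. The smallest adjusted p were those of Tubb5 (-0.18, adjusted p = 0.000230), Pttg1, securin (-0.27, adjusted p = 0.000891), and Ccnf (-0.42, adjusted p = 0.00399) among the falls, and the rises were Smc2 (0.33, adjusted p = 0.00178) and Cit (0.12, adjusted p = 0.0322). Of the 51 further replication genes 4 rose and 3 fell, both below the share over all genes. Among the rises were Atad2 (0.41, adjusted p = 6.40e-05), Rfc1 (0.22, adjusted p = 0.000592) and the origin recognition subunit Orc3 (0.27, adjusted p = 0.000792), and the falls were Dut (-0.25, adjusted p = 0.00390), Rfc2 (-0.18, adjusted p = 0.00814) and Rfc4 (-0.52, adjusted p = 0.0146). Among the 39 control genes 7 fell, close to the share over all genes, and 3 rose, below it. Cdkn1a had 16.1 ± 1.53 CPM in repopulation and 21.3 ± 2.44 CPM in control cortex (-0.41, adjusted p = 0.000258), and Ccnd1 had 36.0 ± 2.23 and 47.0 ± 4.38 CPM in the same groups (-0.39, adjusted p = 0.000450). Ccnd3 stood at -0.33 (adjusted p = 0.00280), and Tfdp2, Rbl2 and Rbl1 rose by 0.15, 0.12 and 0.43.

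Across the 15 libraries, the genes outside all lists whose log2 CPM followed the mean of the mitotic genes most closely were Cldn11 (Pearson r = 0.86), Chp1 (0.86) and the pseudogene Gm10478 (0.85). For the replication genes they were the pseudogene Gm9816 (0.92), Gorab (0.86) and Tmem230 (0.85). Cldn11 had 124 ± 9.28 CPM in repopulation, 191 ± 17.6 CPM in PLX3397 and 141 ± 5.61 CPM in control cortex. These r values describe libraries that share group differences, total counts and composition, and carry no test.

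Some counts may mix neighbouring genes. Kif20a overlaps Cdc23 on the other strand by 1271 bases, and Cdc23 is far more abundant, at 46.9 CPM in repopulation, 47.9 CPM in PLX3397 and 46.7 CPM in control cortex, so the 2.33 ± 0.264, 2.67 ± 0.361 and 2.54 ± 0.511 CPM of Kif20a in those groups are uncertain. The same holds for Ccna2 with Exosc9, over 510 bases, and Cdc45 with Ufd1, over 209 bases. Foxm1 shares 241 bases of exon on its own strand with Tex52 and Gm44596. Tex52 had 2.06 CPM in repopulation, 1.71 CPM in PLX3397 and 1.49 CPM in control cortex, about as much as Foxm1, and rose in repopulation against control by 0.47 (adjusted p = 0.0335), so Foxm1 is uncertain too. Ccnb1, Pcna, Cdc6 and Mcm7 have pseudogene copies in the genome with stretches at least 95% identical, the longest of 781 to 2157 bases. Tyms, Cdc20, Rrm2, Mki67, Cenpe, Mcm6 and Cenpf have such copies too, with longest stretches of 165 to 677 bases. How the counting treated reads that match several places is not given in the sources used here.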

How the data were processed

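The authors' deposited table holds raw read counts per gene symbol, as whole numbers. The submitters' processing notes name STAR, DESeq, DESeq2, MultiQC and FastQC, and the build mm10. The tool that counted reads, its annotation, all versions and the use of strand are not known from these sources. All columns were matched to mice by group and number (0 unmatched). The test was edgeR 4.0.16 (R 4.3.3): filterByExpr with a minimum count of 10 (18369 genes), TMM factors, and robust quasi-likelihood F tests over all 15 libraries in 1 fit, with Benjamini-Hochberg adjustment over all tested genes and a threshold of 0.05. The 3 comparisons share libraries in pairs. Intervals on log2 fold changes are 95% intervals of that fit. CPM is the count scaled by the library total. The per-length scale used exon lengths of GENCODE for GRCm38, which 97.75% of tested genes had.

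The members and the gene lists were chosen with earlier results of these data known. Named genes are all 35 members, Csf1r, Cx3cr1 and P2ry12, up to 3 called genes per direction with the smallest adjusted p from each further list, and the 3 genes most correlated with each role. Pdgfra, Tnr, Sox10, Tubb3, Dcx, Cops6, Cdc23, Tex52, Exosc9, Ufd1 and Gm44596 were added after their values were seen. Alternatives were RLE size factors, DESeq2 1.42.0, no filter, minimum counts of 5 and 20, only the groups compared, replicate number as a block, an offset for length and GC content, each library left out, and, chosen after seeing the data, removal of libraries with 50 CPM or more of choroid plexus markers. The offset for length and GC content included a constant per library, so it also shifted all genes. The fit was tested on simulated data. Libraries of a group differed by more than sampling noise, so none was merged. Depth limits genes near 1 CPM.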

Additional observations from a re-analysis of the deposited data

Results flagged for a closer look

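In 7 of 111 groups of 5 mice, 1 mouse stood apart from the other 4 by more than the 95% critical value of Dixon's test; chance flags about 1 group in 20. Low mice were PLX3397 mouse 4 for Ccna2 (2.24 CPM, others 2.99 to 3.12) and for Cenpe (2.04 CPM, others 2.44 to 2.58). Repopulation mouse 3 was low for Cenpe (1.68 CPM, others 2.10 to 2.21), repopulation mouse 1 for Mcm6 (6.69 CPM, others 7.14 to 7.22) and repopulation mouse 4 for Cdc45 (0.750 CPM, others 1.39 to 1.60). High mice were PLX3397 mouse 1 for Mcm4 (13.2 CPM, others 11.7 to 11.8) and control mouse 4 for Foxm1 (2.92 CPM, others 1.56 to 1.85).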

How the results depend on the processing

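No called value changed sign under the alternatives run; 57 of 2426 values compared changed sign while called in neither fit. In PLX3397 against control cortex the count of mitotic genes called higher, 6, was 3 with only the 2 groups, 2 with length and GC content taken out, 2 with that and the replicate block, 0 without the 4 choroid plexus libraries, and 1 to 7 with each library left out. Replication genes called higher, 0, were 1 with RLE factors, DESeq2, a minimum count of 20, or length and GC content taken out with or without the block, and 0 to 1 with each library left out; those called lower, 1, were 0 with no filter, with length and GC content taken out with or without the block and without the choroid plexus libraries, and 0 to 1 with each library left out. In repopulation against PLX3397 cortex mitotic genes called lower, 6, were 2 without the choroid plexus libraries, and 9 with length and GC content taken out; replication genes called lower, 2, were 1 with no filter, 1 with the block, 0 without the choroid plexus libraries, and 1 to 3 with each library left out. In repopulation against control cortex mitotic genes called higher, 0, were 1 without the choroid plexus libraries and 0 to 1 with each library left out, and those called lower, 3, were 4 with no filter, a minimum count of 20 or only the 2 groups, 2 with the block or without the choroid plexus libraries, and 1 to 3 with each library left out; replication genes called lower, 1, were 0 with no filter, with the block, and with length and GC content taken out with or without the block, and 0 to 2 with each library left out. Over all genes, length and GC content taken out, alone and with the block, gave 832 and 805 called lower in PLX3397 against control, 774 and 746 higher and 3491 and 3303 lower in repopulation against PLX3397, and 1397 and 1292 higher in repopulation against control; without the choroid plexus libraries 589 were higher and 260 lower in repopulation against PLX3397. With each library left out, genes called ranged from 1155 to 1577 higher and 1223 to 1656 lower, 1082 to 1708 higher and 1234 to 1994 lower, and 2079 to 2563 higher and 2476 to 2947 lower in the 3 comparisons in that order. Genes too low to judge, 1, were 0 at a minimum count of 5 and 5 at 20. The cause of these moves was not tested, apart from fewer libraries where libraries were removed.

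The replicate numbers did not pair the mice: deviations of same-numbered mice correlated by -0.13 to 0.10. With the replicate block 5 mitotic genes were called higher in PLX3397 against control cortex, 5 lower in repopulation against PLX3397 cortex and 2 lower in repopulation against control cortex, and all-gene counts were 1376 higher and 1456 lower, 1312 and 1489, and 2410 and 2670.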
